A study of Mus musculus with 4 samples.

Results

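The slow sarcomere genes are the 6 genes *Myh7*, *Myl2*, *Myl3*, *Tnnt1*, *Tnni1* and *Tnnc1*, taken by symbol from the 32285 genes counted in spatial transcriptomes of the injured mouse Achilles tendon. All 6 were found once and passed the filter on low counts in each comparison below. The tissue came from mice of 12 weeks, male and female, 14 days after a punch of 0.5 mm through the Achilles tendon, about 2 mm above the heel bone. The F592A group (2 sections) carried TrkA F592A and was labelled 1NMPP1, and the WT group (2 sections) carried TrkA WT and was labelled Control. TrkA is the nerve growth factor receptor found on pain-sensing and sympathetic nerve fibres, and its F592A form is built to be inhibited by 1NMPP1. The drug label followed genotype in every section, and dosing of the WT group with 1NMPP1 is left unstated. Any part played by the drug thus cannot be told apart from that of genotype. The labels describe a pool of 4 mice per genotype without tying sections to animals, so each p-value measures the spread between these sections. In F592A that spread may be technical. In WT it lies between animals of opposite sex, by the *Xist* and Y-linked counts given below.

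A sarcomere pulls when myosin heads on the thick filament bind actin on the thin filament. Calcium opens the thin filament through troponin. Skeletal muscle builds both parts from alternative genes. Slow fibres use the slow myosin heavy chain *Myh7*, its regulatory light chain *Myl2*, its essential light chain *Myl3*, and the slow troponins T (*Tnnt1*, which binds tropomyosin), I (*Tnni1*, which inhibits the actin and myosin contact) and C (*Tnnc1*, which binds calcium). *Myl2*, *Myl3* and *Tnnc1* also serve the heart ventricle. Fast fibres use *Myh1*, *Myh2* and *Myh4*, *Mylpf*, *Myl1*, *Tnnt3*, *Tnni2* and *Tnnc2* in the same places, and muscle that is forming or regenerating passes through a stage with the embryonic myosin *Myh3*. The muscle above the Achilles tendon includes the soleus, which is rich in slow fibres.

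The 6 genes lie on 5 chromosomes of the mouse genome (RefSeq, GRCm38.p6). *Myh7* spans chr14:54970684-54994626 and *Tnnc1* chr14:31208312-31211729, *Myl2* chr5:122092724-122113473, *Myl3* chr9:110763678-110769802, *Tnnt1* chr7:4504569-4515975 and *Tnni1* chr1:135783033-135810989. The 250 bases before the first listed start are shown for 3 members, *Myh7* and *Tnni1* as the thick and thin filament genes with the most negative fold changes below, and *Myl3* as the member that departed most from the others. They were read from RefSeq promoters of GRCm38.p6 on the strand of the gene, at chr14:54994627-54994876 (minus), chr1:135799171-135799420 (plus) and chr9:110763428-110763677 (plus). The windows of *Myh7* and *Myl3* end at the start of the gene, while the start listed first for *Tnni1* lies 16388 bases inside its span, so that window is within the gene. Capitals mark the E-box letters CANNTG, the core bound by MyoD-family factors, and the MCAT letters CATTCC, bound by TEAD factors, searched on both strands.
Myh7: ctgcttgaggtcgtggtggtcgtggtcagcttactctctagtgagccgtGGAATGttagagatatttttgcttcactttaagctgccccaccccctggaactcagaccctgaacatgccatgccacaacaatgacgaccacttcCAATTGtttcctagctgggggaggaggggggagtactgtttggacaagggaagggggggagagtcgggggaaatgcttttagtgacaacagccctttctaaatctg
Tnni1: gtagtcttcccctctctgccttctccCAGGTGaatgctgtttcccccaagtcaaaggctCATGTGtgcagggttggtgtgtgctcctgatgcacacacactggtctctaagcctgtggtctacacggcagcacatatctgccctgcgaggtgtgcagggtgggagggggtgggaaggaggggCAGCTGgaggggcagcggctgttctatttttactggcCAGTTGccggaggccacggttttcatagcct
Myl3: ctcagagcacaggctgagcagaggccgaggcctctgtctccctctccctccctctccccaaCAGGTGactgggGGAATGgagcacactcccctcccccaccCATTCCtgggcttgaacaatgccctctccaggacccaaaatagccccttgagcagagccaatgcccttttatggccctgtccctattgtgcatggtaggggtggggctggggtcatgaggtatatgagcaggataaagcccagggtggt

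At least 1 E-box was found in each of the 6 windows, against 66.2% of 32851 windows of the same length. The MCAT letters occurred once in the windows of *Myh7* and *Tnnc1*, 2 times in that of *Myl3* and not in those of *Myl2*, *Tnnt1* and *Tnni1*, against 12.6% of all windows. No motif overlapped another in the windows shown. The MEF2 consensus was in none of the 6 windows (2.92% of all windows) and the CArG box in that of *Myl3* (1.47% of all windows). A match describes letters and not a bound site.

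The sections held 43957617 and 37089208 UMIs (F592A 1 and F592A 2) and 42911141 and 30154873 UMIs (WT 1 and WT 2). WT 2 stood apart: it had 4207 UMIs of *Xist* and 23 of Y-linked genes, whereas the other 3 sections had 7 to 12 and 7522 to 7918. By these counts WT 2 was female and the other 3 sections male, so sex differed within WT and in part between the groups. The part of sex in the fold changes was not tested. Clustering of spots with the 6 genes left out gave 15 regions, of which 4 were led by muscle genes. These were a *Myh3*-led region (39 and 15 spots in F592A 1 and 2, 429 and 171 in WT 1 and 2), an *Mss51*-led region (27 and 4 in F592A, 131 and 237 in WT), a *Myh2*-led region (166 and 186 in F592A, 263 and 4 in WT) and a *Myh4*-led region (478 and 459 in F592A, 375 and 7 in WT). *Myh2* marks fast oxidative fibres and *Myh4* the fast glycolytic ones. WT 2 held almost none of either, and F592A held little of the *Myh3*-led tissue, so which tissue a section caught and its genotype cannot be told apart. The *Myh3*-led spots were mixed tissue, with 3.35% of UMIs from the muscle lists and a tendon list share (0.580%) near that of the *Acan*-led tendon region (0.577%).

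**Figure D1:**
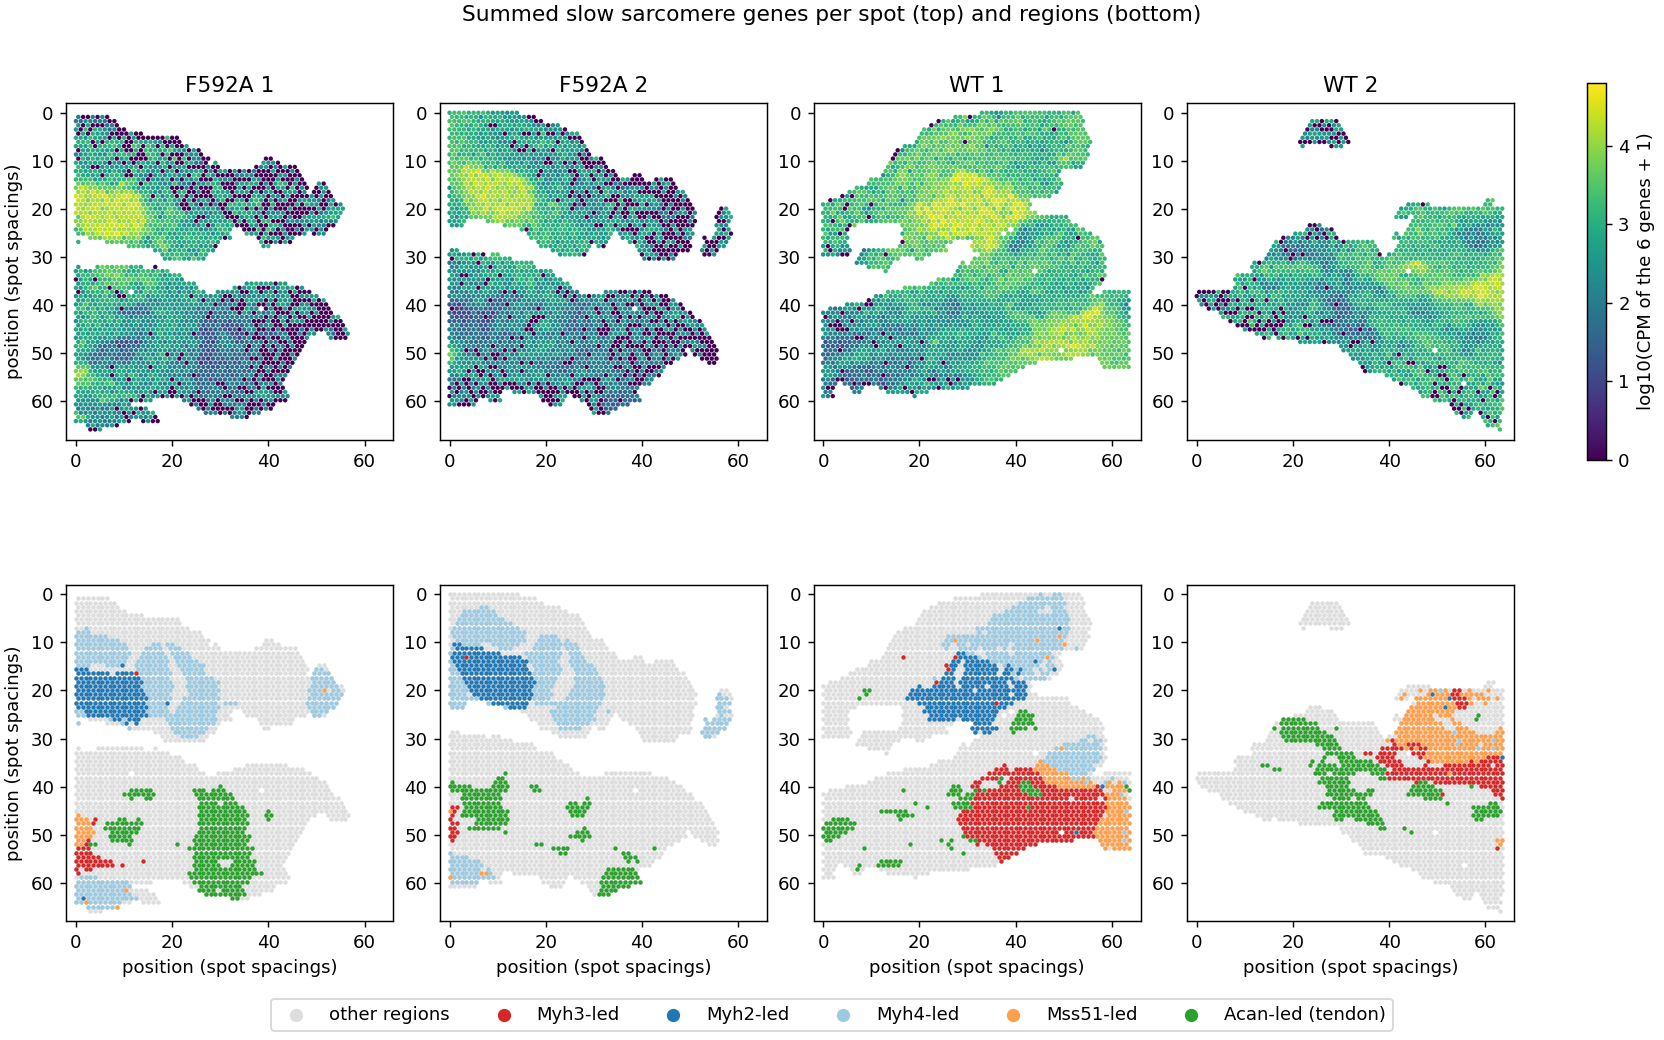
Each point is a tissue spot at its place on the array, in spot spacings; the columns are the sections F592A 1, F592A 2, WT 1 and WT 2. The top row is coloured by log10 of the summed CPM of the 6 genes plus 1, and the bottom row by region; the brightest field lies in the Myh2-led region of F592A 1, F592A 2 and WT 1, while in WT 1 and WT 2 a further bright field lies in the Myh3-led region (429 and 171 spots).

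In whole sections the slow sarcomere genes were lower in F592A. The 6 genes together made up 538.6 and 539.7 UMIs per 1e6 UMIs (CPM) in F592A 1 and 2, against 2190 and 1278 CPM in WT 1 and 2. The 2 F592A sections were nearly equal and the groups did not overlap. *Myh7* fell with an adjusted p under 0.05, and the other members did not pass. It was 1 of 6 members called lower, whereas 0.0489% of the 16347 genes tested were. In 5 of 6 members both F592A sections lay below both WT sections, as did 22.4% of all genes tested, and the median log2 fold change of the 6 was -2.14. In spot data, fewer muscle fibres and less RNA per fibre cannot be told apart.

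Among the thick filament genes, *Myh7*, the slow motor itself, had 57.0 and 64.8 TMM-scaled CPM in F592A 1 and 2, against 327 and 331 in WT 1 and 2. The groups stood far apart beside the small spread within each, and the log2 fold change was -2.43 ± 0.12 (SE, n = 2 each; edgeR quasi-likelihood test, Benjamini-Hochberg adjusted p = 0.0126). *Myh7* lies beside its near-identical heart paralog *Myh6*, with which reads could be split, and *Myh6* had 0.184 and 0.236 TMM-scaled CPM in F592A and 0.437 and 0.719 in WT. The light chains followed less closely. *Myl2* had 125 and 106 TMM-scaled CPM in F592A, against 450.1 and 249 in WT, a log2 fold change of -1.60 ± 0.29 that did not pass (edgeR adjusted p = 0.196). *Myl3* had 195 and 196 TMM-scaled CPM in F592A, against 433 and 176 in WT, so the groups overlapped, and its log2 fold change was -0.64 ± 0.39 (edgeR adjusted p = 0.592).

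The thin filament genes had fold changes between those of the light chains and that of *Myh7*, or beyond it. *Tnnt1* had 75.3 and 76.7 TMM-scaled CPM in F592A, against 407 and 281 in WT, a log2 fold change of -2.18 ± 0.20 (edgeR adjusted p = 0.0521). *Tnni1* had 33.3 and 24.7 TMM-scaled CPM in F592A, against 218 and 111 in WT, and *Tnnc1* had 59.9 and 56.4 in F592A, against 323 and 173 in WT. No troponin overlapped between groups, but WT 1 was well above WT 2 in all 3. The log2 fold changes were -2.50 ± 0.34 for *Tnni1* and -2.09 ± 0.29 for *Tnnc1*, neither past the threshold (edgeR adjusted p = 0.137 and 0.138). The count of members called ran from 0 without either F592A section to 6 without WT 2 (5 without WT 1).

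**Figure D2:**
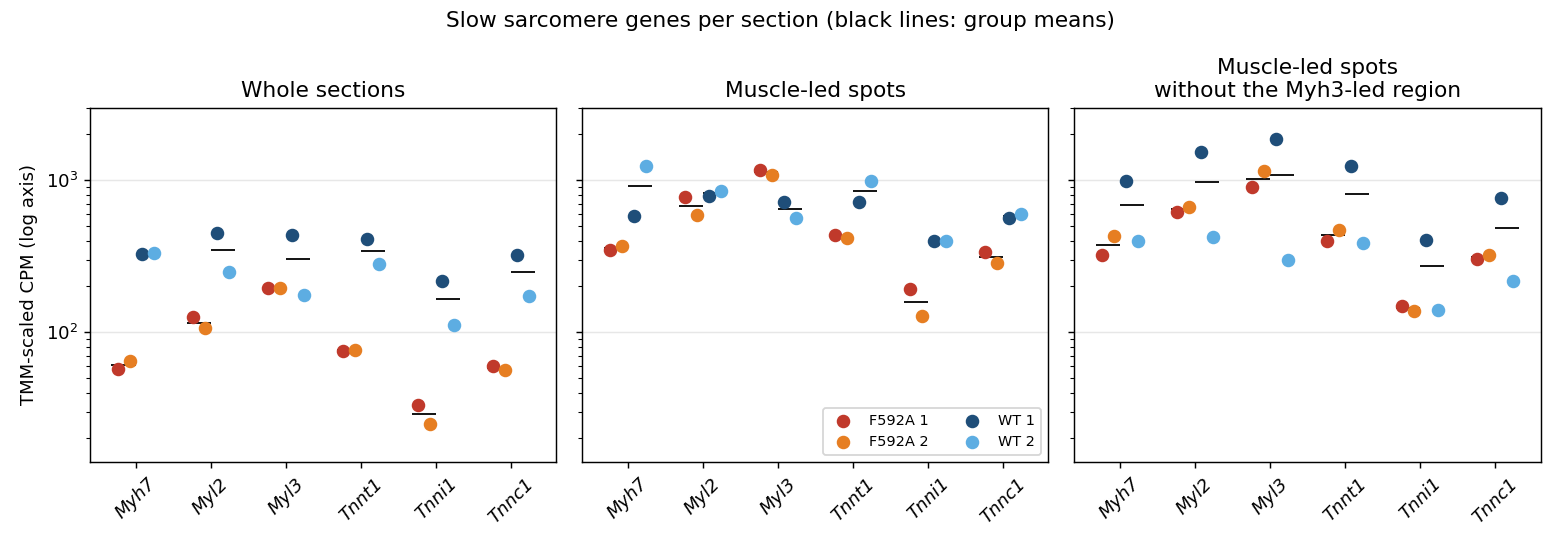
TMM-scaled CPM (log axis) of the 6 genes in each section, with F592A left of WT, for whole sections, muscle-led spots and muscle-led spots without the Myh3-led region; black lines are group means. In whole sections Myh7 sits at 57.0 and 64.8 in F592A and at 327 and 331 in WT, while without the Myh3-led region WT 1 and WT 2 lie on either side of F592A for several genes.

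The fast genes did not fall with them. Of 14 fast fibre genes, 0 passed in either direction in whole sections, against 0.0795% of all genes tested, and 13 had a positive log2 fold change, with a median of 0.29. *Tnnt3*, the fast troponin T, had 2127 and 2604 TMM-scaled CPM in F592A and 2176 and 1671 in WT, and *Myh4* had 2822 and 3302 in F592A and 2154 and 2293 in WT. *Myh2* was the 1 fast gene with a negative value (-0.66 ± 0.28, edgeR adjusted p = 0.445). The 8 muscle genes shared by fibre types had a median of -0.21 with 0 called, and their summed level was 8208 and 8855 CPM in F592A and 10582 and 7521 CPM in WT, which overlap.

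Each slow gene was also set against its fast counterparts, as the share of a pair's UMIs that come from the slow member. That share depends on which muscle a section caught. It was lower in both F592A sections than in both WT sections for all 6 pairs in whole sections. *Myh7* made up 1.40% and 1.45% of its UMIs plus those of *Myh1*, *Myh2* and *Myh4* in F592A, against 8.48% and 8.64% in WT. The 95% Wilson intervals, which cover counting error only, ran from 1.35% to 1.51% over the F592A sections and from 8.35% to 8.80% over the WT sections. *Tnnt1* made up 3.42% and 2.86% of its pair with *Tnnt3* in F592A, against 15.8% and 14.4% in WT.

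*Tnni1* took 2.21% and 1.49% of its pair with *Tnni2* in F592A, against 14.0% and 9.76% in WT. *Tnnc1* took 3.41% and 2.84% of its pair with *Tnnc2* in F592A, against 15.0% and 11.9% in WT. Neither troponin pair overlapped between groups. Among the light chains *Myl2* took 6.53% and 5.45% of its pair with *Mylpf* in F592A, against 18.5% and 15.0% in WT, and *Myl3* took 9.36% and 8.30% of its pair with *Myl1* in F592A, against 16.7% and 11.1% in WT. *Myl3* had the smallest gap between groups in percentage points. With 2 sections a group the exact two-sided permutation test gave p = 0.33 for each of the 6 pairs, the smallest it can give, so this design cannot reach 0.05. Without the *Myh3*-led region the order was lost for *Myl2* (5.80% and 6.67% in F592A, against 14.4% and 5.16% in WT), for *Myl3* (7.36% and 8.52% in F592A, against 15.8% and 3.70% in WT) and for *Tnnc1* (2.90% and 2.93% in F592A, against 7.23% and 2.85% in WT). Shares were compared within a pair, since capture may differ between genes.

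**Figure D3:**
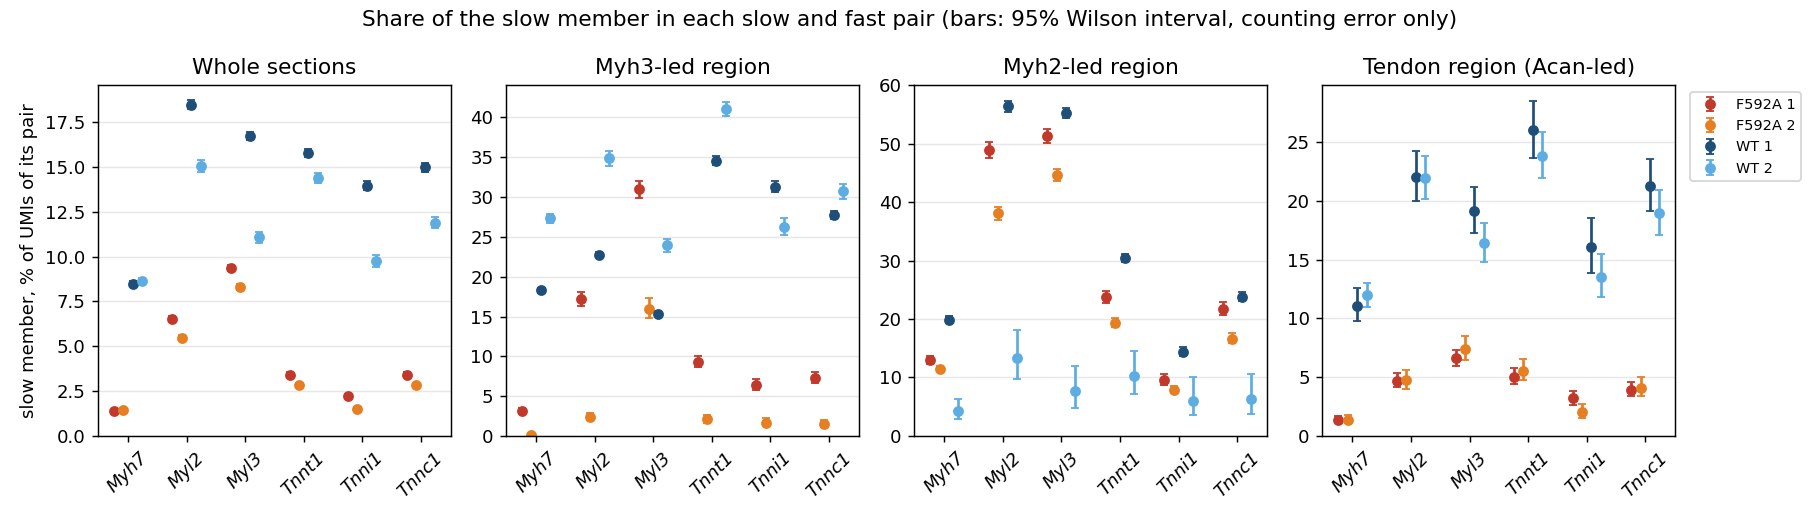
Percent of the UMIs of each slow and fast pair that come from the slow member, per section, with F592A left of WT; bars are 95% Wilson intervals and cover counting error only. In whole sections and in the Acan-led tendon region both F592A sections lie below both WT sections for all 6 genes, while in the Myh2-led region WT 1 lies highest and WT 2, with 4 spots there, lowest.

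The *Myh2*-led region held the highest CPM of every member in the 3 sections with at least 20 such spots. *Myh7* reached 2183 and 1746 CPM there in F592A 1 and 2, against 2708 CPM in WT 1. *Tnnc1* reached 1853 and 1246 CPM in F592A, against 1921 CPM in WT 1, and *Myl3* 5541 and 4293 CPM in F592A, against 5543 CPM in WT 1. WT 1 was thus level with or above F592A. The 4 *Myh2*-led spots of WT 2 gave lower values for every member (*Myh7* 813 CPM, *Myl3* 576 CPM) and are too few to compare.

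Slow and fast isoforms were counted together in the *Myh2*-led spots. *Myl3* took 51.4% and 44.7% of its pair there in F592A, against 55.3% in WT 1, and *Myl2* took 48.9% and 38.1% in F592A, against 56.4% in WT 1. *Myh7* took 13.0% and 11.5% of its group of myosins in F592A, against 19.9% in WT 1. As UMIs, which capture can skew between genes, the light chain pairs were nearer an even split than the heavy chains of the same spots. Spots where the slow gene held the majority in all 6 pairs numbered 0 and 0 in F592A, against 2 of 253 in WT 1, counted over spots with at least 10 UMIs of every pair, 161 and 184 of them in F592A.

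In the *Myh4*-led region the slow genes were far lower. *Myh7* had 58.1 and 77.8 CPM there in F592A, against 254 CPM in WT 1, and *Tnni1* had 18.9 and 28.1 CPM in F592A, against 111 CPM in WT 1. The same order held for the other 4 members between these 3 sections, with *Myl3* closest (246 and 303 CPM in F592A, against 534 CPM in WT 1). The share of all genes in this order was not counted for this region, and the order rests on a single WT section. WT 2 held 7 such spots. The summed fast genes of this region were at 116654 and 118346 CPM in F592A and 116336 CPM in WT 1.

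The *Myh3*-led region, led by embryonic myosin, carried most of the slow genes' UMIs in WT. Its embryonic character lay in the WT spots. Genes of the regenerating muscle list summed to 310 and 210 CPM there in F592A, against 2117 and 1523 CPM in WT. The F592A values were below those of the *Myh4*-led spots of F592A (343 and 400 CPM). Comparisons between groups within this region thus set unlike muscle side by side. It gave 22.5% and 4.02% of the UMIs of the 6 genes in F592A 1 and 2, against 50.1% and 56.1% in WT 1 and 2, while the *Myh2*-led region gave 42.7% and 59.3% in F592A, against 28.0% and 0.332% in WT. Within the *Myh3*-led spots *Myh7* had 299.6 and 11.2 CPM in F592A, against 531 and 2108 CPM in WT. *Tnnt1* had 424 and 61.9 CPM there in F592A, against 642 and 1606 CPM in WT. Neither gene overlapped between groups, although WT 2 was well above WT 1. In 4 of 6 members both F592A sections lay below both WT sections there, as in 24.4% of the 11899 genes with at least 10 UMIs in 2 sections, and *Myl2* and *Myl3* overlapped. F592A 2 had 15 of these spots, with 11 UMIs of *Myh7* in them.

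*Myl3* made up a different part of the slow counts in those spots. It had 1735 and 533 CPM in F592A, against 428 and 845 CPM in WT, values that overlap (exact permutation p = 0.67). Of the UMIs of the 6 genes in the *Myh3*-led region, *Myl3* made up 42.2% and 65.3% in F592A, against 13.1% and 11.2% in WT. *Myh7* made up 7.29% and 1.37% in F592A, against 16.2% and 28.1% in WT. In the *Myh2*-led region the make-up was close in the 3 sections with enough spots, with *Myl3* at 33.2% and 34.9% in F592A and 28.4% in WT 1. The fast genes in the *Myh3*-led spots were at 36255 and 31478 CPM in F592A, against 12309 and 21529 CPM in WT, and their part in the make-up was not tested.

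**Figure D4:**
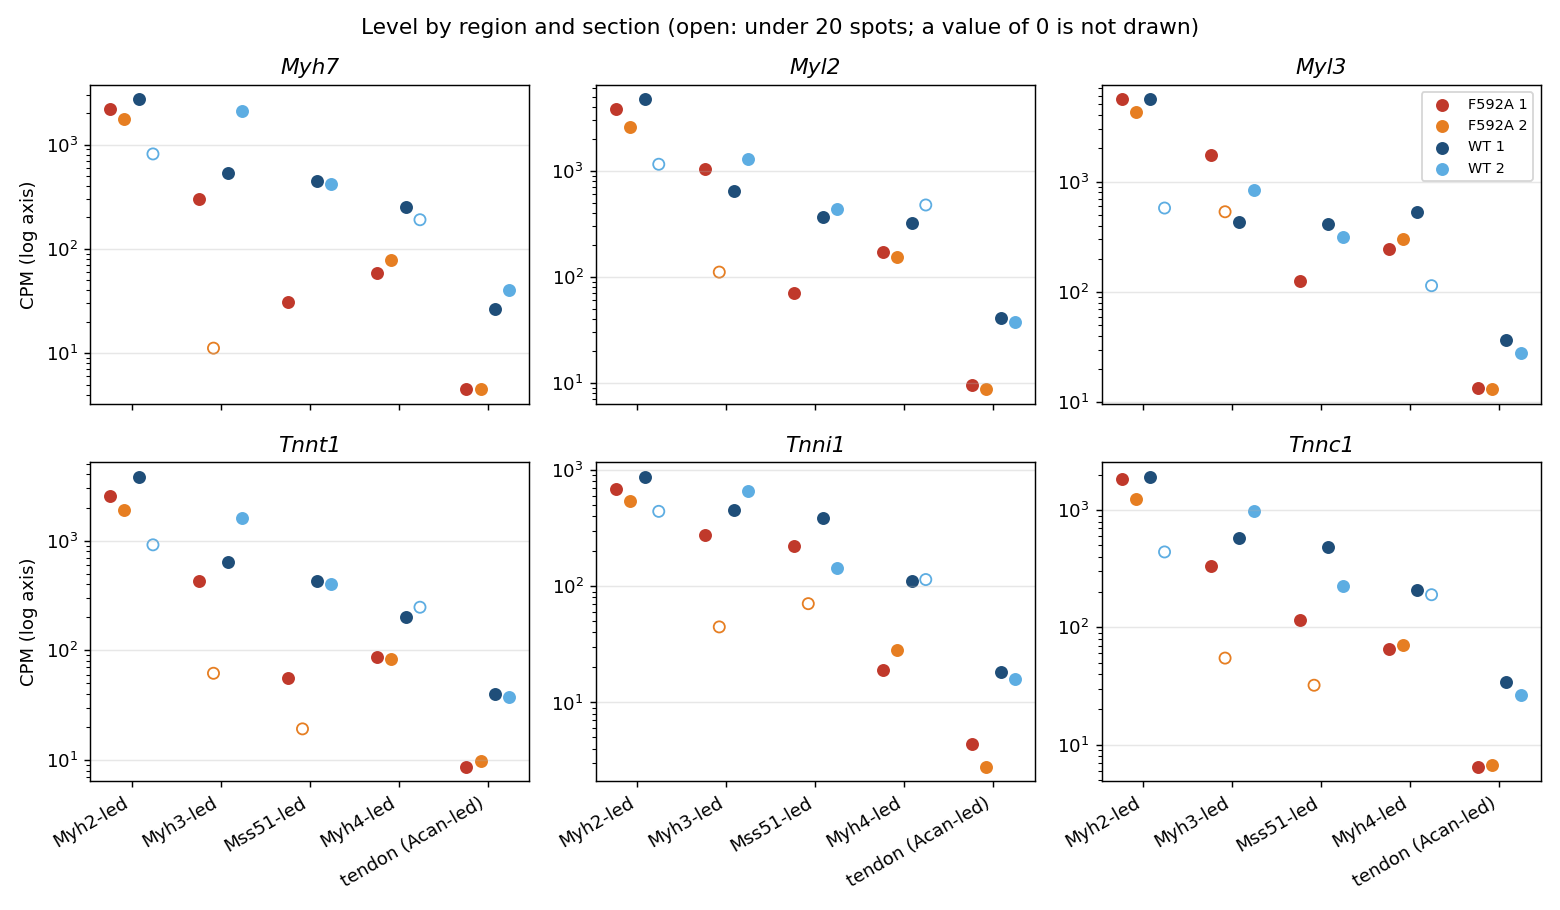
CPM (log axis) of each gene by region and section, with F592A left of WT; open points are sections with under 20 spots of the region, and values of 0 are not drawn. In F592A 1, F592A 2 and WT 1 every gene is highest in the Myh2-led region, with Myh7 at 2183, 1746 and 2708 CPM.

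**Figure D5:**
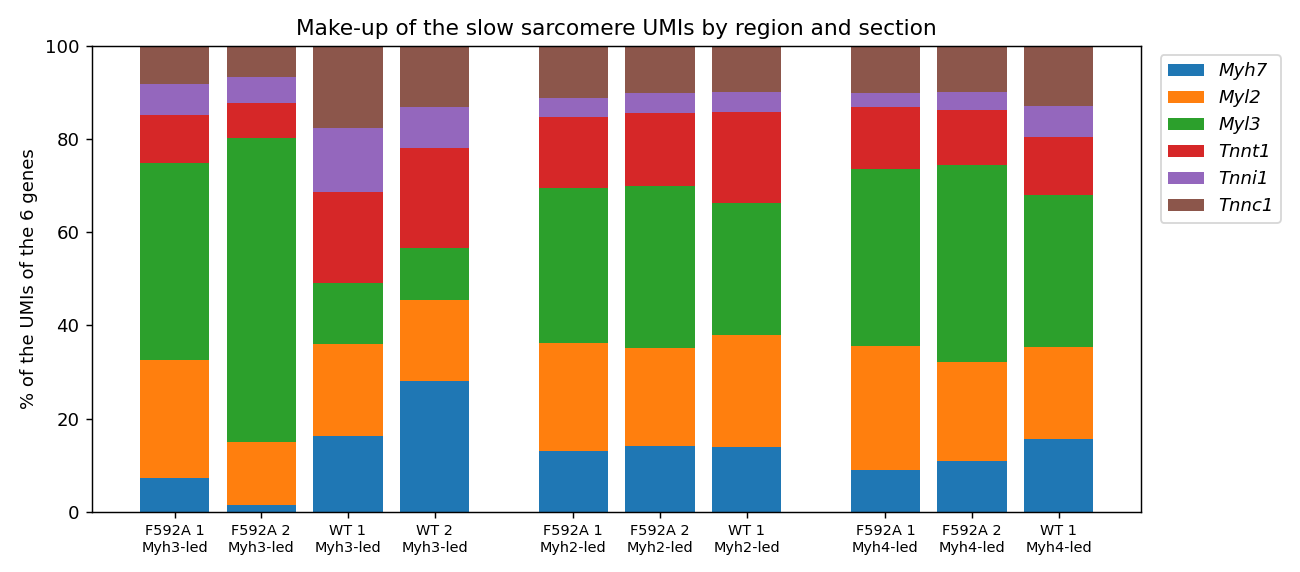
Stacked bars give the percent of the UMIs of the 6 genes that each gene contributed, by region and section, with F592A left of WT; sections with under 10 spots of a region are left out. In the Myh3-led region Myl3 makes up 42.2% and 65.3% in F592A and 13.1% and 11.2% in WT, while the Myh2-led bars are alike.

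Over all muscle-led spots together, 4 of 6 members were called lower in F592A, against 4.92% of the 12986 genes tested. In 5 of 6 both F592A sections lay below both WT sections, as in 31.6% of all genes. *Tnni1* had 191 and 127 TMM-scaled CPM in F592A, against 395 and 397 in WT, a log2 fold change of -1.32 ± 0.23 (edgeR adjusted p = 0.0259). *Tnnc1* (-0.90 ± 0.19), *Tnnt1* (-0.999 ± 0.22) and *Myh7* (-1.35 ± 0.34) also passed (edgeR adjusted p = 0.0349, 0.0374 and 0.0468). *Myl2* had a log2 fold change of -0.27 ± 0.22 and *Myl3* one of 0.81 ± 0.22, and neither passed (edgeR adjusted p = 0.441 and 0.0539).

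These spots differed in more than the slow genes. Of the 14 fast genes 9 rose, while 11.4% of all genes tested were called in either direction, and the fast list summed to 86595 and 89823 CPM in F592A, against 31403 and 51429 CPM in WT. Of 12 genes of regenerating muscle 8 fell, among them *Myh3* and the fusion factors *Mymk* and *Mymx*. All 4 fat cell markers and 3 of 5 epidermal markers rose, at summed levels of 468 and 722 CPM in F592A and 317 and 344 CPM in WT for fat, and 720 and 1740 CPM in F592A and 340 and 161 CPM in WT for epidermis. Their part in the members' fold changes was not tested. The calls depended on the definition of muscle: with finer clustering, or with spots chosen by muscle marker share, 0 of 6 members passed. Calls were lost over all genes, with 12 of 12840 and 1 of 12221 genes called in either direction. The fold changes of the 4 called members were larger in size. *Myh7* had log2 fold changes of -1.62 and -1.79 under these settings (edgeR adjusted p = 0.0612 and 0.0674), *Tnni1* -1.65 and -1.56 (0.0612 and 0.398), *Tnnt1* -1.29 and -1.58 (0.0559 and 0.316) and *Tnnc1* -1.21 and -1.25 (0.0615 and 0.400). The calls did not all hold when 1 section was left out. The log2 fold changes then ran from -1.78 to -0.73 for *Myh7* and from -1.65 to -1.05 for *Tnni1*. They ran from -1.20 to -0.78 for *Tnnt1* and from -1.03 to -0.78 for *Tnnc1*. Scaled to the muscle genes shared by fibre types, the median log2 fold change of all genes was -1.05. With this scaling 7699 of 13526 genes tested were called lower, and so were 5 of 6 members, with *Myl3* at -0.25.

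Without the *Myh3*-led region, a comparison chosen after seeing the data, no member passed, and 0 of 12394 genes were called by edgeR (1043 at an unadjusted p under 0.05, and 52 by DESeq2). *Myh7* had 322 and 430 TMM-scaled CPM in F592A, against 980 and 400.1 in WT, and *Tnni1* had 150 and 138 in F592A, against 401 and 140.2 in WT. WT 1 was above both F592A sections for all 6 members, and WT 2 was between or below them. Thus 0 of 6 members had both F592A sections below both WT sections, as did 20.2% of all genes. The log2 fold changes ran from -0.92 ± 0.43 for *Tnni1* to -0.08 ± 0.69 for *Myl3* (edgeR adjusted p = 0.621 and 0.983). Without WT 1, 5 of 6 turned positive and *Myl3* passed at 1.77 (edgeR adjusted p = 0.0222), whereas without WT 2, *Tnnt1* (-1.52) and *Tnni1* (-1.48) were called lower (edgeR adjusted p = 0.0447 for both).

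Counts of the slow genes reached beyond the muscle-led regions. Outside these regions lay 23.1% and 24.0% of the UMIs of the 6 genes in F592A, against 14.1% and 30.9% in WT. The spots outside were not free of muscle genes. In an *Hba-a2*-led region of 1017 spots, not classed as muscle-led, the muscle lists made up 6.94% of UMIs. In the *Acan*-led tendon region *Myh7* had 4.51 and 4.56 CPM in F592A, against 26.6 and 40.0 CPM in WT. In the *Krt77*-led epidermal region, which should lack it, *Myh7* had 24.0 and 76.1 CPM in F592A, against 203 and 92.6 CPM in WT. The median spot held 45166 UMIs in the tendon region and 2973 in the epidermal one, so CPM cannot be compared directly between them. Per spot, *Myh7* had 0.329 and 0.335 UMIs in the tendon region in F592A, against 1.68 and 1.67 in WT, and 0.0915 and 0.323 UMIs in the epidermal region in F592A, against 0.569 and 0.327 in WT. Genes of the muscle lists made up 0.260% of UMIs in the tendon region and 3.15% in the epidermal one. The source of the tendon counts was not tested.

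In the tendon region both F592A sections lay below both WT sections for 6 of 6 members, as in 17.0% of the 14094 genes with at least 10 UMIs in 2 sections. The slow shares lay in the same order as in whole sections: *Myh7* took 1.395% and 1.394% of its myosins in F592A, against 11.1% and 12.0% in WT, and *Tnnt1* took 5.05% and 5.57% of its pair in F592A, against 26.0% and 23.9% in WT. The summed level of the 6 genes was 522 and 466 CPM in F592A and 1157 and 963 CPM in WT in spots 1 step from a muscle-led spot. It was lower over 8 steps away, at 89.9 and 131 CPM in F592A and 195 and 323 CPM in WT. The fall was not steady. WT 1 had 1341 CPM at 2 steps, and WT 2 had 480 CPM at 2 steps and 508 CPM at 5 to 8 steps. F592A 2 had 118 CPM at 5 to 8 steps, below its value over 8 steps away.

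Other genes of the slow programme had negative fold changes in whole sections without passing. Of 10 partners of the slow sarcomere, all 10 had a negative log2 fold change in whole sections and 0 passed, with a median of -1.14. *Casq2*, the calcium store protein of slow and cardiac muscle, had 9.30 and 8.20 TMM-scaled CPM in F592A, against 64.8 and 25.5 in WT (log2 fold change -2.37 ± 0.43, edgeR adjusted p = 0.196). *Atp2a2*, the slow calcium pump, had 268 and 284 TMM-scaled CPM in F592A, against 489 and 479 in WT (-0.81 ± 0.12, edgeR adjusted p = 0.143). Groups did not overlap for either. *Tpm3*, the slow tropomyosin, and *Mybpc1*, slow myosin binding protein C, had log2 fold changes of -0.81 and -0.68. In muscle-led spots 2 of the 10 partners fell, against 4.92% of all genes tested. They were *Casq2* (-1.22 ± 0.20, edgeR adjusted p = 0.0224) and *Tpm3* (-0.83 ± 0.21, edgeR adjusted p = 0.0454). Positive values that did not pass were found for 2 partners, *Mybpc1* (0.20) and *Ankrd2* (0.48).

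Of 15 regulators of fibre type, 0 passed in whole sections, and their median log2 fold change was -0.19. The nuclear receptor *Esrrg* had 1.98 and 2.33 TMM-scaled CPM in F592A, against 4.99 and 4.83 in WT (-1.19 ± 0.21, edgeR adjusted p = 0.196), and *Prox1*, a factor that favours slow fibres, had a log2 fold change of -0.88. *Vgll2* and *Eya1* had log2 fold changes of -0.58 and -0.90. Of the 15 regulators, 11 had negative values in whole sections and 4 had positive ones. Among the positive ones were *Sox6*, a repressor of slow genes (0.28), and *Nfatc1* (0.26). In muscle-led spots 14 of the 15 regulators had positive values and 3 rose, while 843 of 12986 genes tested were called higher. All 14 fast genes and all 8 muscle genes shared by fibre types also had positive values there. *Sox6* rose to 39.9 and 45.9 TMM-scaled CPM in F592A, against 13.2 and 19.6 in WT (1.43 ± 0.22, edgeR adjusted p = 0.0201), beside the higher fast genes given above. The other two were *Mef2d*, a factor that activates muscle genes (0.70 ± 0.17), and *Ppargc1a*, a coactivator that favours oxidative and slow fibres (1.08 ± 0.27; edgeR adjusted p = 0.0416 and 0.0463). Of 12 genes of regenerating muscle, all 12 had negative values in whole sections and 0 passed, with a median of -3.31; *Myh3* had 1.96 and 0.655 TMM-scaled CPM in F592A, against 170 and 48.2 in WT. The 5 oxidative muscle genes had a median of -0.12, with 0 called.

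The genes whose levels followed the summed slow genes most closely over 43 section and region sums were *Myoz2* (Pearson r = 0.980), *Myh2* (0.938), *Actn2* (0.933), *Csrp3* (0.932) and *Ankrd2* (0.929), followed by *Coq8a*, *Ldhb*, *Atp1b1*, *Mb* and *Fabp3*, among 11708 genes compared on log2(CPM + 1). *Myoz2* encodes a Z-disc protein of slow and cardiac muscle. *Myl2* and *Tnnt1* (0.977) and *Tnnt1* and *Tnnc1* (0.978) were close pairs among the members, while *Myl3* and *Tnni1* (0.840) were the least alike. These values describe sums that share sections, depth and muscle content.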

How the data were processed

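Spatial transcriptomes of 4 sections of 10 µm were measured on Visium arrays. The deposited values are UMI counts without normalization for each gene in each spot, written by Space Ranger 1.3.0 per the file headers; mm10 and Seurat 3 are named in the submitters' processing notes. Array positions were taken from the deposited files. The 6 genes and all lists were chosen with earlier results of these data known. Named genes were the members, their fast counterparts, up to 4 genes per list by smallest p and the genes of highest likeness. *Sox6*, *Nfatc1*, *Ankrd2*, *Mymk*, *Mymx*, *Myh4* and *Myh6* are named for their values or as counterparts.

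Spots of at least 500 UMIs were kept. Spots share array barcodes between sections by design (727 in all 4). Regions came from scanpy 1.11.5 (2000 variable genes without the members, 30 components, 20 neighbours, Leiden resolution 0.6, seed 0), and regions with 3 or more muscle list genes in their top 10 by fold were called muscle-led. UMIs were summed per section and tested with edgeR 4.0.16 (quasi-likelihood, TMM, filterByExpr, Benjamini-Hochberg over all genes tested, threshold 0.05) on R 4.3.3. DESeq2 1.42.0 was an alternative. A planned test of muscle-led spots outside the regenerating class was not run, since WT 2 had 11 such spots: the class took in the *Mss51*-led region. Motifs were searched in RefSeq promoters. The edgeR fit was also run on simulated counts with the same dispersion for every gene. That run cannot give error rates for these sections, which differed in tissue and sex. Depth of 30154873 to 43957617 UMIs per section keeps counting error small in whole sections. Values of small regions can rest on few UMIs, such as 11 of *Myh7* in the *Myh3*-led spots of F592A 2.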

Additional observations from a re-analysis of the deposited data

How the results depend on the processing

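In whole sections, where 1 member was called, 5 were called with DESeq2, 5 without a filter on low counts and 5 with the library size taken from shared muscle genes, and 4 with muscle-led spots left out. Leaving out 1 section gave 0 to 6. In muscle-led spots, where 4 were called, finer clustering (resolution 1.0) and spots by marker share each gave 0, with larger fold changes for the 4 called (log2 -1.65 to -1.21 and -1.79 to -1.25) and *Myl2* at -0.65 and -0.91, and leaving out 1 section gave 0 to 4. *Myl3* was called higher in F592A there with DESeq2, without a filter, with the replicate block, without WT 1 and without WT 2. Without the *Myh3*-led region, where 0 were called, no filter gave 3 and leaving out 1 section gave 0 to 2. The cause was not tested.

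Calls over all genes moved more. Whole sections gave 13, against 5 with RLE scaling, 420 with DESeq2, 546 without a filter, 373 with the muscle library size, 8 without muscle-led spots and 0 to 390 without 1 section. Muscle-led spots gave 1482, against 3256 without a filter, 12 with finer clustering, 1 by marker share, 7807 with the muscle library size and 36 to 2991 without 1 section. Without the *Myh3*-led region 0 became 52 with DESeq2, 540 without a filter, 1 by marker share, 6 with the muscle library size and 0 to 73 without 1 section.

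Deviations of same-numbered sections from their group means were only weakly and negatively correlated (Pearson r = -0.176 over 13019 genes), and the labels do not pair them. With the number as a replicate block 1 member was called in whole sections (7 genes), 4 lower in muscle-led spots (3359 genes) and 0 without the *Myh3*-led region (0 genes). A crossed pairing, chosen after seeing the data, called 4, 4 and 0 members (189, 1718 and 433 genes).

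The sign of *Myl3* turned in whole sections without WT 1 (range without 1 section -1.15 to 0.15 on the log2 scale), and in muscle-led spots by marker share (-0.22) and with the muscle library size (-0.25). Without the *Myh3*-led region it turned with the replicate block (0.43), with the crossed block (0.43) and without F592A 1 (0.09). There, leaving out WT 1 turned 5 members, with ranges of -1.25 to 0.60 for *Myl2*, -0.87 to 1.77 for *Myl3*, -1.52 to 0.17 for *Tnnt1*, -1.48 to 0.035 for *Tnni1* and -1.28 to 0.52 for *Tnnc1*. Slow shares in whole sections stayed lower on average in F592A with spots of at least 1000 UMIs and without each section: without 1 section the F592A minus WT difference, in percentage points, was -7.21 to -7.06 for *Myh7*, -12.5 to -9.04 for *Myl2*, -7.89 to -2.23 for *Myl3*, -12.6 to -11.2 for *Tnnt1*, -12.1 to -7.90 for *Tnni1* and -11.8 to -8.74 for *Tnnc1*.

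The mean summed level of the 6 genes moved to 7731 CPM in the regenerating class with finer clustering, and by marker share to 25825 CPM in slow spots (WT 1 alone), 2710 CPM in fast spots and 615 CPM in tendon spots (WT only). Alternatives set for the muscle-led spots outside the regenerating class were run without the *Myh3*-led region instead.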

Other observations

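In the *Mss51*-led region, which shares *Myh1* and *Pvalb* with fast muscle among its leading genes, 1 section had an unlike make-up of the slow genes. *Tnni1* made up 36.1% of the UMIs of the 6 genes in F592A 1 (27 spots), against 15.2% and 7.43% in WT 1 and 2. *Myh7* made up 5.02% in F592A 1, against 17.9% and 21.6% in WT. F592A 2 held 4 spots of this region. *Tnni1* itself had 224 CPM there in F592A 1, against 385 and 143 CPM in WT, so its level overlapped.

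Spots with a majority of slow *Tnnt1* in the troponin T pair numbered 6 of 1632 and 10 of 1731 in F592A 1 and 2. They numbered 110 of 1586 and 74 of 858 in WT 1 and 2, of spots with at least 10 UMIs of the pair. In the *Myh3*-led region they numbered 0 of 39 and 0 of 15 in F592A, against 48 of 413 and 42 of 170 in WT. F592A thus had few such spots to count there. In the *Myh2*-led region they numbered 6 of 166 and 10 of 185 in F592A, against 49 of 263 in WT 1 and 0 of 4 in WT 2. No test was run on spots.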
